A study of Mus musculus with 8 samples.

Results

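The genes described here handle iron and heme in the cell: Tfrc and Trf of transferrin-bound uptake, the metal carriers Slc11a2 and Slc11a1, the ferritin chains Fth1 and Ftl1, the iron exporter Slc40a1 and the heme-degrading enzyme Hmox1. They were chosen by symbol, and all 8 were found among the 24924 genes of the count table. RNA had been sequenced from T cells and from microglia, the resident macrophages of the brain, that were sorted by surface marker from brains of C57BL/6 mice aged 20 to 22 months. The mice had been given interleukin-5 (IL-5), a cytokine best known for its action on eosinophils, in daily doses of 2 µg on 2 days, or phosphate-buffered saline (PBS) instead. The 8 libraries form 4 groups of 2: T cells IL-5, T cells PBS, Microglia IL-5 and Microglia PBS. All groups share the strain and the age range, and all cells were sorted by surface marker. The markers of the sort, the route of injection and any pooling of mice are not given in the labels, so p-values measure the spread between these libraries, which may be technical.

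Cells take up iron mainly as transferrin (Trf) bound to the transferrin receptor (Tfrc), move it out of the endosome through the carrier DMT1 (Slc11a2), store it inside a shell of ferritin heavy and light chains (Fth1 and Ftl1) and release it through ferroportin (Slc40a1). Macrophages also recover iron from phagocytosed material, with NRAMP1 (Slc11a1) in the phagosome membrane and heme oxygenase (Hmox1) opening the heme ring. Much of this system is set after transcription. When iron is scarce, iron regulatory proteins bind hairpins called iron-responsive elements, which blocks translation where the hairpin lies in the 5′ untranslated region (UTR) and protects the transcript where it lies in the 3′ UTR.

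The hairpin was searched for as a run of 17 bases: a bulged C, 5 bases, the loop CAGTGN, and 5 bases that pair with the first 5 by Watson-Crick or G-T pairs. The search read the strand of the transcript in 1 principal GENCODE M21 transcript per gene. The sites found in Fth1, Ftl1, Slc40a1 and Tfrc are shown because this hairpin is known to control the translation or decay of these transcripts, beside the levels reported below. They are printed 5′ to 3′ with 5 flanking bases on each side, and capitals mark the bulged C and the loop. Coordinates are on GRCm38.
Fth1, 5′ UTR, chr19:9982733-9982759, plus strand: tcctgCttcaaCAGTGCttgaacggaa
Ftl1, 5′ UTR, chr7:45459780-45459806, minus strand: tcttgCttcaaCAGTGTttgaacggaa
Slc40a1, 5′ UTR, chr1:45925466-45925492, minus strand: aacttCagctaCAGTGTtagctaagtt
Tfrc site 1, 3′ UTR, chr16:32631220-32631246, plus strand: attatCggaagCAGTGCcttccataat
Tfrc site 2, 3′ UTR, chr16:32631599-32631625, plus strand: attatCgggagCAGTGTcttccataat
Tfrc site 3, 3′ UTR, chr16:32631664-32631690, plus strand: tatatCggagaCAGTGAtctccatatg
Tfrc site 4, 3′ UTR, chr16:32631711-32631737, plus strand: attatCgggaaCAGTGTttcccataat

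The Fth1 and Ftl1 sites shared 25 of 27 bases. The pattern was rare: it occurred in the 5′ UTR of 21 of 21864 genes (0.0960%) and in the 3′ UTR of 104 of them (0.476%). Within the transcripts searched, no match was found for Trf, Slc11a2, Slc11a1 or Hmox1, which says only that these letters are not there. The counts reported below measure transcripts, and the binding of iron regulatory proteins was not measured.

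Gene counts per library were 23536908 to 30423828, and a single count was worth 0.0329 to 0.0425 counts per 1000000 gene counts (CPM). Sorting was visible in the markers: all 14 microglia markers were lower and all 12 T cell markers higher in T cells (edgeR quasi-likelihood test, Benjamini-Hochberg adjusted p under 0.05). Microglia IL-5 replicate 1 stood apart from the other 7 libraries on the second principal component, at 196.7 against -93.8 to 80.9. It had the fewest genes with a count, 13172, and the largest share of reads outside genes, 25.5%. T cells IL-5 replicate 1 stood apart on the third component, at 180.5 against -114 to 31.96. The values of the 8 genes without either library are given with each comparison. RNA of other cells was present: the sum of 12 choroid plexus markers, led by Ttr, Enpp2 and Kcnj13, ran from 36205 to 117441 CPM over the libraries. Endothelial markers (8 genes, led by Ly6c1, Slc2a1 and Cldn5) summed to 1587 to 2885 CPM in T cells and 1123 to 1824 CPM in microglia, and B cell markers (6 genes, led by Cd79a and Cd79b) to 136 to 263 CPM and 137 to 300.4 CPM. The monocyte list of 8 genes summed to 1000.4 to 1146 CPM in T cells and 509.6 to 939 CPM in microglia, but it was led by Ly6c2 and Nr4a1, which T cells also express. Its member Chil3 was at 0 to 0.0389 CPM in T cells and 33.8 to 203 CPM in microglia, and Chil3 and Plac8 were called lower in T cells (edgeR adjusted p = 6.2e-05 and 0.00114).

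The T cell libraries held less transcript than microglia of 5 of the 8 genes: both ferritin chains, the exporter Slc40a1, Hmox1 and Slc11a1. None of the 8 was higher in T cells, and Trf, Tfrc and Slc11a2 did not pass the test. Among all 15397 genes tested, 11.4% were lower and 8.05% higher in T cells. Those 5 were also the ones called by DESeq2, which called 32.3% of genes, and the ones with an unadjusted edgeR p under 0.05, as 33.9% of genes had. All 8 genes passed the filter on low counts in this and every other comparison. The size of each difference depended on scaling. On the fitted scale, with TMM scaling, the median of all genes was 0.17 (log2, T cells over microglia), with library-size scaling it was 0.91, and with RLE size factors 0.11. Calls moved from 1240 higher and 1753 lower to 2790 higher and 868 lower with library-size scaling, and were 1170 higher and 1837 lower with RLE. Relative to the median gene, 7 of the 8 genes were lower and 1, Tfrc, was higher under each of the 3 scalings. In sorted bulk RNA, fewer cells of a type and less RNA per cell cannot be told apart.

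**Figure D1:**
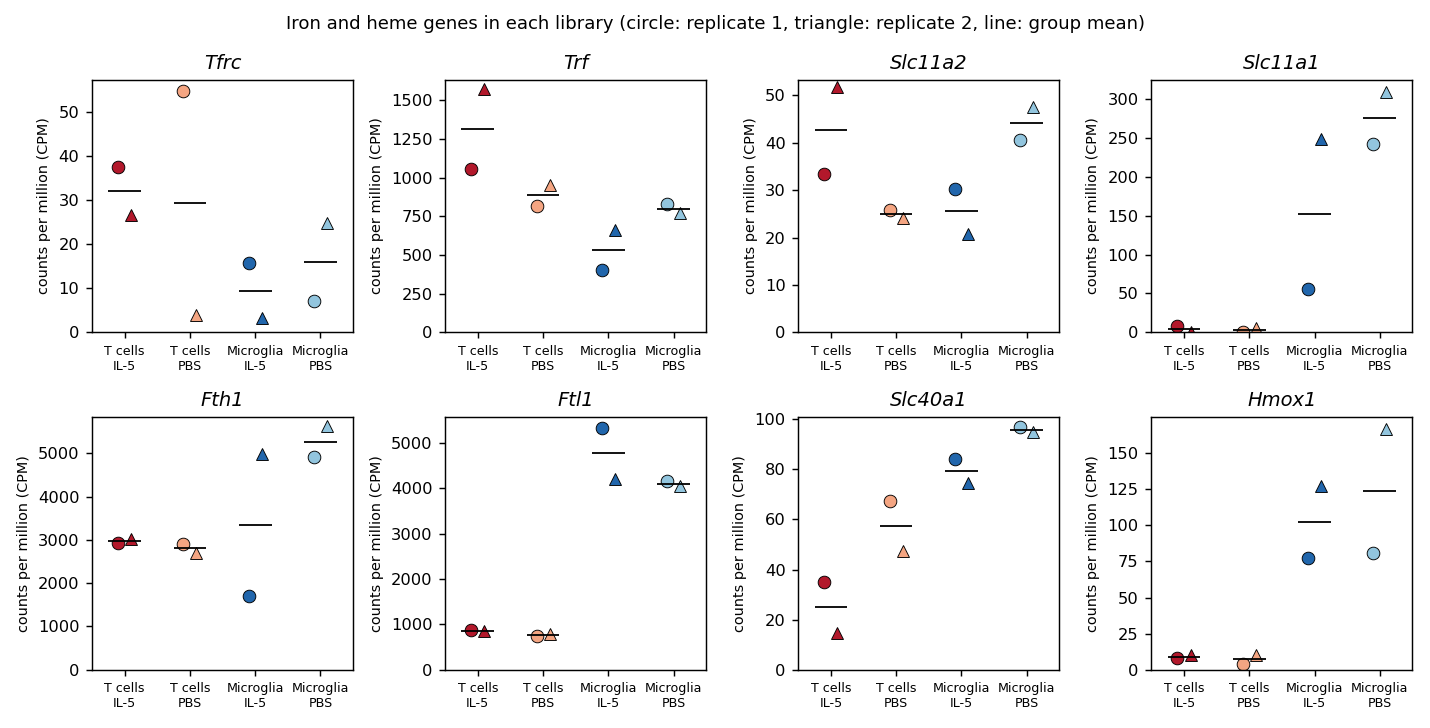
Level of each of the 8 genes in CPM (vertical axis, linear, from 0) in each library of the 4 groups; circles are replicate 1, triangles replicate 2 and lines group means of 2. Slc11a1, Ftl1, Slc40a1 and Hmox1 are lower in all 4 T cell libraries than in any microglia library, while Tfrc spreads widely within its groups.

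Per length of transcript, ferritin chains were the most abundant of the 8 in both cell types. Fth1, the heavy chain that oxidises iron for storage (GRCm38 chromosome 19, 9980598 to 9985098, plus strand), measured 2919 and 3023 CPM in T cells IL-5, 2915 and 2699.6 CPM in T cells PBS, 1699.6 and 4993 CPM in Microglia IL-5 and 4907 and 5643 CPM in Microglia PBS. In CPM the 4 T cell libraries lay close together and below 3 of the microglia libraries, but above Microglia IL-5 replicate 1. The TMM factor of that library was 0.638, against 1.27 to 1.32 in T cells, and CPM are not adjusted for it. Whether that library lies above or below the T cell libraries therefore depends on scaling. The fitted log2 fold change was -1.27 (SE 0.29, 95% interval -1.92 to -0.62, 4 libraries against 4, edgeR adjusted p = 0.0145), a 2.41-fold lower level in T cells. The call was lost with library-size scaling (-0.54, edgeR adjusted p = 0.246), although relative to the median gene the value was -1.45 there and -1.44 with TMM. It was also lost without T cells IL-5 replicate 1, T cells IL-5 replicate 2 or T cells PBS replicate 2 (edgeR adjusted p = 0.0583, 0.0531 and 0.0558, at -1.27, -1.27 and -1.24), and between the IL-5 libraries alone (-0.93, edgeR adjusted p = 0.217). Without Microglia IL-5 replicate 1 it was -1.57 (edgeR adjusted p = 6.2e-05).

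Ftl1, the light chain that helps the iron core form (chromosome 7, 45457944 to 45459884, minus strand), measured 879 and 844 CPM in T cells IL-5, 738 and 794 CPM in T cells PBS, 5336 and 4207 CPM in Microglia IL-5 and 4154 and 4042 CPM in Microglia PBS. Every T cell library lay far below every microglia library. The fitted log2 fold change was -3.23 (SE 0.26, 95% interval -3.81 to -2.65, edgeR adjusted p = 7.9e-05), or 9.37-fold lower in T cells, and the mean CPM was 5.45 times as high in microglia. The call held in all alternatives run, with adjusted p of at most 0.00150. Ftl1 has 13 near-identical relatives in the annotation, 4 of them annotated pseudogenes, at 95% identity or more over at least 75 bases, so its counts depend on how the authors placed reads with several matches, which is not given in the sources used here. Ftl1 also shares 355 bases of exon with Gm10252 on the opposite strand and 109 with Gm22133 on the same strand. Neither symbol is among the genes of the count table.

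The light and heavy chains therefore stood in different proportions. The count of Ftl1 divided by that of Fth1 was 0.301 and 0.279 in T cells IL-5, 0.253 and 0.294 in T cells PBS, 3.14 and 0.843 in Microglia IL-5 and 0.846 and 0.716 in Microglia PBS. All 4 T cell libraries had about the same ratio, below all 4 microglia libraries, and Microglia IL-5 replicate 1 was the one library with more light than heavy chain counts. The mean log2 ratio was -1.83 ± 0.11 in T cells and 0.17 ± 0.99 in microglia (SD, n = 4 each). The difference of -2.0 had an exact permutation p of 0.0286, two-sided, the smallest that 4 against 4 can give. Without Microglia IL-5 replicate 1 it was -1.51 (exact permutation p = 0.0571, the smallest that 3 against 4 can give). The ratio needs no scaling between libraries, though the lengths of the transcripts, 929 bases for Fth1 and 968 for Ftl1, enter it equally in every library.

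**Figure D2:**
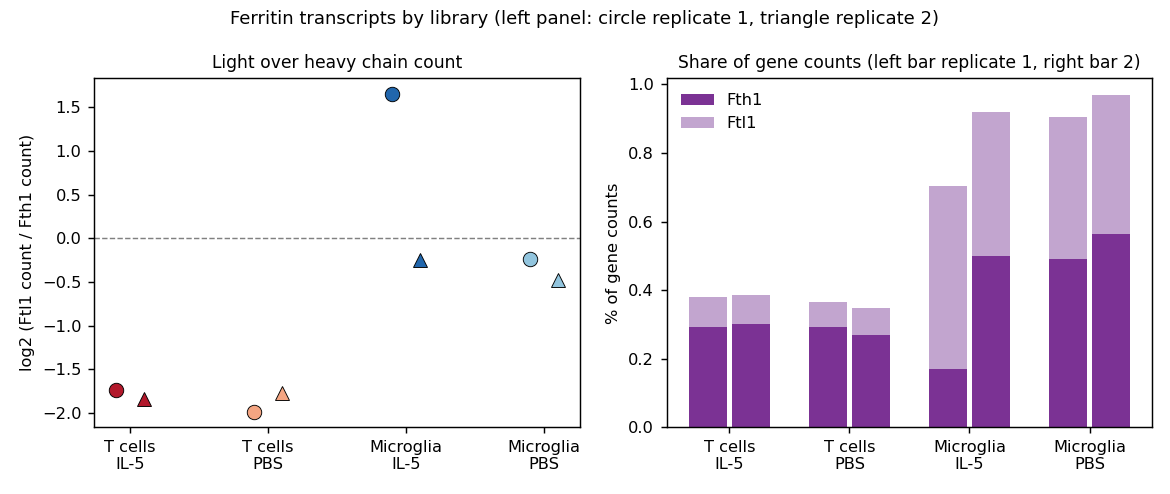
Left, log2 ratio of the Ftl1 count to the Fth1 count in each library (circles replicate 1, triangles replicate 2), with a dashed line at equal counts. Right, stacked bars of the share of gene counts taken by Fth1 and Ftl1 in percent. The ratio is between -1.98 and -1.73 in T cells, and 1.65 in Microglia IL-5 replicate 1 against -0.48 to -0.24 in the other microglia libraries.

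Together the 2 chains took 0.380% and 0.387% of gene counts in T cells IL-5, 0.365% and 0.349% in T cells PBS, 0.704% and 0.920% in Microglia IL-5 and 0.906% and 0.969% in Microglia PBS. Fth1 was nevertheless among the leading transcripts of T cells, ranked 9 or 10 of all genes by count, an order that also depends on transcript length, in each T cell library. In microglia it ranked 15 or 16 in 3 libraries and 60 in Microglia IL-5 replicate 1. Ftl1 ranked between 65 and 105 in T cells and between 14 and 22 in microglia.

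Slc40a1 encodes ferroportin, the only known iron exporter of mammalian cells (chromosome 1, 45908068 to 45926523, minus strand). It measured 35.1 and 14.6 CPM in T cells IL-5, 67.5 and 47.4 CPM in T cells PBS, 84.1 and 74.5 CPM in Microglia IL-5 and 96.8 and 94.8 CPM in Microglia PBS. In CPM, T cells lay below microglia in every library, with the groups in rising order from T cells IL-5 over T cells PBS and Microglia IL-5 to Microglia PBS and no overlap between neighbouring groups. The step between the microglia groups depended on scaling. Fitted with TMM, IL-5 against PBS in microglia was -0.09 (SE 0.40), and 0.15 without Microglia IL-5 replicate 2. The log2 fold change of T cells over microglia was -1.98 (SE 0.37, edgeR adjusted p = 0.00620), 3.94-fold lower. The call was lost between the PBS libraries alone (-1.44, edgeR adjusted p = 0.140).

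Hmox1, which opens heme and releases its iron, carbon monoxide and biliverdin (chromosome 8, 75093621 to 75100589, plus strand), measured 7.80 and 9.86 CPM in T cells IL-5, 4.09 and 10.4 CPM in T cells PBS, 77.5 and 127 CPM in Microglia IL-5 and 81.0 and 167 CPM in Microglia PBS. The lowest microglia library was above the highest T cell library, while the microglia groups overlapped each other. T cells were 23.7-fold lower on the fitted scale (log2 fold change -4.57, SE 0.45, edgeR adjusted p = 0.000227). This call too held in all alternatives run, with adjusted p of at most 0.00479.

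Slc11a1 exports metal ions from the phagosome of macrophages and neutrophils (chromosome 1, 74375195 to 74386062, plus strand), and C57BL/6 mice are known to carry a form that makes no functional protein. Its transcript measured 7.84 and 0 CPM in T cells IL-5, 0 and 6.10 CPM in T cells PBS, 55.3 and 248 CPM in Microglia IL-5 and 243 and 309 CPM in Microglia PBS. One T cell library of each treatment had no count, which allows up to 0.113 CPM in T cells IL-5 replicate 2 and 0.114 CPM in T cells PBS replicate 1, and Microglia IL-5 replicate 1 was far below the other microglia libraries. T cells were lower by a fitted log2 fold change of -6.58 (SE 1.73, edgeR adjusted p = 0.0329), a size that rests on the libraries at 0. The call did not survive leaving out any one of the 8 libraries (edgeR adjusted p = 0.0543 to 0.217). The neutrophil marker sum was also lower in T cells: over 12 genes, led by S100a8, S100a9 and Ngp, it was 16.7 and 105 CPM in T cells IL-5, 15.98 and 134 CPM in T cells PBS, 16762 and 13728 CPM in Microglia IL-5 and 15133 and 17703 CPM in Microglia PBS, with 8 of 12 called lower in T cells by edgeR and Mmp8 and Cxcr2 at 0 in all T cell libraries. Mpo, a granule enzyme of neutrophils, was not lower in every T cell library: it measured 0 and 69.4 CPM in T cells IL-5, 0 and 87.6 CPM in T cells PBS, 9.09 and 43.6 CPM in Microglia IL-5 and 30.3 and 32.9 CPM in Microglia PBS. The part of these cells in the Slc11a1 counts was not tested.

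Border macrophages, which live in the meninges and around vessels, are another known source of Slc40a1 and Hmox1. The sum of 10 of their markers, led by Pf4, Ms4a7 and Cbr2, was 39.2 and 29.2 CPM in T cells IL-5, 12.1 and 18.3 CPM in T cells PBS, 375 and 319 CPM in Microglia IL-5 and 309.9 and 231 CPM in Microglia PBS. Of 9 tested, 4 were called lower in T cells by edgeR, and Lyve1, Ms4a7 and Clec10a were at 0 in all T cell libraries. The part of these cells in the levels of both genes was not tested. Of 10 erythroid markers, the globin genes Hbb-bs, Hbb-bt, Hba-a1 and Hba-a2 were listed at 0 in all 8 libraries, and the sum of the list, led by Alas2 and Slc4a1, was 11.9 to 122 CPM in T cells and 25.2 to 46.5 CPM in microglia.

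Trf encodes transferrin (chromosome 9, 103204001 to 103230444, minus strand), which in the brain is made mainly by oligodendrocytes and the choroid plexus. It measured 1055 and 1574 CPM in T cells IL-5, 816 and 954 CPM in T cells PBS, 400.1 and 663 CPM in Microglia IL-5 and 827 and 774 CPM in Microglia PBS. In CPM, the T cell and microglia libraries overlapped only in that Microglia PBS replicate 1 was above T cells PBS replicate 1. This order is not adjusted for the TMM factors, which were 0.638 to 0.819 in microglia and 1.27 to 1.32 in T cells. The fitted difference did not pass (log2 fold change -0.03, SE 0.23, 95% interval -0.55 to 0.49, edgeR adjusted p = 0.973), but the sign turned with library-size scaling (0.73, edgeR adjusted p = 0.0679), while relative to the median gene Trf was at -0.20 with TMM and -0.18 with library-size scaling. By edgeR 5 of 12 choroid plexus markers and 3 of 12 oligodendrocyte markers were higher in T cells, and their part in the Trf level was not tested. Trf shares 2108 bases of exon with a gene annotated on the same strand, Gm20425, whose symbol is not among the genes of the count table.

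Tfrc (chromosome 16, 32608920 to 32632794, plus strand), the receptor that carries transferrin into dividing cells in particular, measured 37.5 and 26.7 CPM in T cells IL-5, 54.8 and 3.89 CPM in T cells PBS, 15.7 and 3.16 CPM in Microglia IL-5 and 7.23 and 24.8 CPM in Microglia PBS. The replicates of one group differed more than the groups did. The log2 fold change of T cells over microglia was 0.49 (SE 0.91, 95% interval -1.55 to 2.54, edgeR adjusted p = 0.763), and it turned to -0.96 without T cells PBS replicate 1 and was 1.39 without Microglia IL-5 replicate 1.

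Slc11a2 (chromosome 15, 100387898 to 100425072, minus strand), the carrier that moves iron from the endosome to the cytosol, measured 33.5 and 51.8 CPM in T cells IL-5, 25.9 and 24.2 CPM in T cells PBS, 30.3 and 20.9 CPM in Microglia IL-5 and 40.6 and 47.6 CPM in Microglia PBS. The cell types overlapped throughout, with a log2 fold change of -0.83 (SE 0.41, 95% interval -1.76 to 0.09, edgeR adjusted p = 0.187). It overlaps Gm5475 on the opposite strand by 402 bases of exon, and reads of the 2 genes cannot be told apart since the strand setting of the counting is not given.

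The levels can be ordered per kilobase of transcript (RPKM, CPM divided by the length of the principal transcript). In T cells Fth1 was first at 3110 ± 146 RPKM, followed by Ftl1 at 841 ± 63.6 and Trf at 428 ± 129 (SD, n = 4 libraries). Slc40a1 at 12.2 ± 6.57 and Slc11a2 at 11.2 ± 4.17 RPKM came next and lay within their spread, as did Tfrc at 6.28 ± 4.36 and Hmox1 at 5.12 ± 1.82 RPKM, and Slc11a1 was last at 1.505 ± 1.76 RPKM. In microglia Fth1 at 4640 ± 1907 and Ftl1 at 4581 ± 624 RPKM did not differ beyond their spread, Trf followed at 259 ± 73.9, and Slc11a1 at 92.3 ± 47.5 and Hmox1 at 72.0 ± 27.0 RPKM overlapped. Slc40a1 at 25.97 ± 3.07 RPKM, Slc11a2 at 11.5 ± 3.88 RPKM and Tfrc at 2.60 ± 1.96 RPKM were the lowest in microglia.

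By non-overlap alone, 4 of the 8 genes (Slc11a1, Ftl1, Slc40a1 and Hmox1) were below all microglia libraries in all T cell libraries in CPM, as were 8.14% of the genes tested. None of the 8 was above all microglia libraries in all T cell libraries, against 25.9% of the genes tested. Both shares depend on the CPM scale: with library-size scaling the median gene lay at 0.91 (log2, T cells over microglia), and with TMM at 0.17. Without T cells IL-5 replicate 1 the fitted values were 0.34 for Tfrc, 0.090 for Trf, -0.70 for Slc11a2, -11.27 for Slc11a1, -3.26 for Ftl1, -2.38 for Slc40a1 and -4.50 for Hmox1. Without Microglia IL-5 replicate 1 they were -0.18 for Trf, -0.63 for Slc11a2, -6.98 for Slc11a1, -3.09 for Ftl1, -1.90 for Slc40a1 and -4.71 for Hmox1, and Ftl1, Slc40a1 and Hmox1 were called in both cases.

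**Figure D3:**
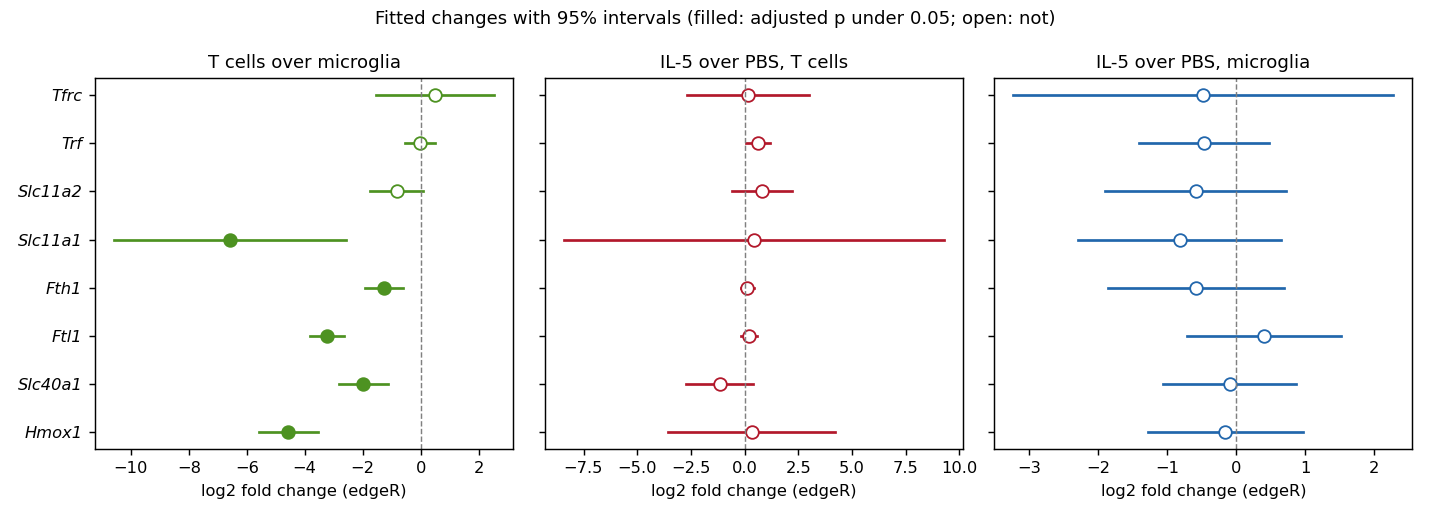
Fitted log2 fold changes of the 8 genes with 95% intervals, for T cells over microglia (left, 4 libraries against 4), IL-5 over PBS in T cells (middle) and IL-5 over PBS in microglia (right, both 2 against 2); each panel has its own horizontal scale. Filled points, with adjusted p under 0.05, occur in the left panel, for Slc11a1, Fth1, Ftl1, Slc40a1 and Hmox1.

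Other genes of iron and heme handling, in 7 lists, also included calls between the cell types. The counts called in each list stand beside 11.4% lower and 8.05% higher in T cells among all 15397 genes tested. No list was tested as a set. Relative to the median gene with TMM, 8 of 10 iron-sulfur assembly genes and 10 of 15 genes of heme transport and breakdown were lower in T cells. So were 11 of 14 of uptake and export, 9 of 14 of the heme and oxidant response and 2 of 3 of ferritin turnover and chaperones. The other way, 6 of 8 genes of iron sensing and 7 of 9 of heme synthesis were higher. Of the chaperones and turnover genes of ferritin, Ncoa4, the receptor that delivers ferritin for autophagy, was higher in T cells, at 33.4 to 41.6 CPM against 2.43 to 5.71 CPM in microglia (log2 fold change 2.30, SE 0.65, edgeR adjusted p = 0.0356). Pcbp1, which loads ferritin with iron, was lower at -1.44 (SE 0.23, edgeR adjusted p = 0.00274), a call that was lost with library-size scaling (-0.69, edgeR adjusted p = 0.0799). Pcbp2, a related chaperone, was at -0.16 (edgeR adjusted p = 0.804).

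Among 14 tested genes of uptake and export, 1 was higher and 2 were lower in T cells, with a list median of -0.78 (log2). Cp, the ceruloplasmin ferroxidase that works beside ferroportin, measured 61.1 to 187 CPM in T cells and 12.96 to 30.7 CPM in microglia (1.71, SE 0.43, edgeR adjusted p = 0.0219). The part of RNA from other cells, among them choroid plexus, in the Cp level was not tested. The secreted iron-binding proteins of neutrophils were lower: Ltf, lactoferrin, by a log2 fold change of -11.95 (SE 1.15, edgeR adjusted p = 0.000344), and Lcn2, which captures bacterial iron carriers, by -4.45 (SE 0.76, edgeR adjusted p = 0.00518). The sum of the neutrophil markers given above was also lower in T cells. Among microglia, Lcn2 was at 91.0 CPM in Microglia IL-5 replicate 1 and at 489 to 760 CPM in the other libraries. The neutrophil sum was 16762 CPM in that library and 13728 to 17703 CPM in the others. The part of neutrophils in the Ltf and Lcn2 values was not tested. Slc22a17, a receptor for the Lcn2 protein, was at -0.39 (edgeR adjusted p = 0.296).

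Of 8 tested genes of iron sensing, none was higher in T cells and 2 were lower: Zfp36, an RNA-binding protein that shortens the life of transcripts such as Tfrc (-3.51, SE 0.35, edgeR adjusted p = 0.000236), and Hfe, the hemochromatosis protein that binds the transferrin receptor (-2.45, SE 0.38, edgeR adjusted p = 0.00247). The list median was 1.13 in the other direction. The iron regulatory proteins themselves, Aco1 at 1.62 (edgeR adjusted p = 0.0861) and Ireb2 at 0.36, did not pass, nor did Fbxl5 at 1.096, which removes the Ireb2 protein when iron is plentiful. With library-size scaling Aco1 and Fbxl5 were called higher.

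Heme synthesis had 1 of 9 genes higher, Alas1, its first and rate-limiting enzyme (1.28, SE 0.36, edgeR adjusted p = 0.0341), and 1 lower, Cpox (-1.67, SE 0.42, edgeR adjusted p = 0.0220), and Fech, which inserts the iron, was at 0.41. With library-size scaling Cpox was no longer called (-0.89, edgeR adjusted p = 0.166). Of 15 tested genes of heme transport and breakdown, none was higher and 5 were lower in T cells, with a list median of -0.95. They were the heme transporter of the lysosome Slc48a1 (-1.52, SE 0.30, edgeR adjusted p = 0.00731), Blvrb, which reduces biliverdin (-2.77), Lrp1, a receptor for heme bound to hemopexin (-1.91), haptoglobin Hp (-8.44) and the heme and folate carrier Slc46a1 (-2.50), with edgeR adjusted p of 0.0141, 0.0148, 0.0166 and 0.0293 for the last 4. Pgrmc1, a heme-binding membrane protein, was at -0.02. With library-size scaling Hp was the one of the 5 still called, and Abcg2 and Por were called higher. Slc46a1 measured 5.52 CPM in Microglia IL-5 replicate 1 and 109 to 162 CPM in the other microglia libraries, and Hp 0.977 CPM against 68.7 to 117 CPM, and this library was also the lowest of the microglia for Slc11a1. It was the lowest of the microglia for 7 of the 12 neutrophil markers, among them Ngp at 797 CPM against 2742 to 3792 CPM and Csf3r at 65.6 CPM against 130 to 161 CPM, and the highest for 3, among them S100a8 at 10490 CPM against 5496 to 6943 CPM. Low values in this library were not confined to that list. In CPM it was also the lowest of the microglia for 9 of 14 microglia markers and the highest for 3. For the 12 T cell markers these counts were 9 and 0, and for the 12 choroid plexus markers 3 and 3. The part of neutrophils in the Slc46a1, Hp and Slc11a1 values was not tested.

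The response to heme and oxidants had none of 14 genes higher and 3 lower, Mafg (-2.62, SE 0.41, edgeR adjusted p = 0.00261), Prdx1, a peroxidase (-1.45, SE 0.25, edgeR adjusted p = 0.00411), and Nfe2l2, the transcription factor NRF2 that drives Hmox1 (-1.09, SE 0.29, edgeR adjusted p = 0.0293). Hif1a, the hypoxia factor, was at 0.84 (edgeR adjusted p = 0.0789). With library-size scaling Mafg was the one of the 3 still called, and Gclc, Hif1a and Txnrd1 were called higher. Iron-sulfur cluster assembly had 5 of 10 genes lower and none higher, against 11.4% and 8.05% of all genes tested, with a list median of -1.05. The 5 were Isca2 (-1.43), Iscu, the scaffold (-1.32), Nfu1 (-1.72), Glrx5 (-1.13) and Hscb (-2.01), with edgeR adjusted p of 0.00581, 0.00700, 0.00838, 0.0141 and 0.0450. None of the 10 passed with library-size scaling, where the list median was -0.26, yet relative to the median gene the list was at -1.17 there and at -1.22 with TMM.

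**Figure D4:**
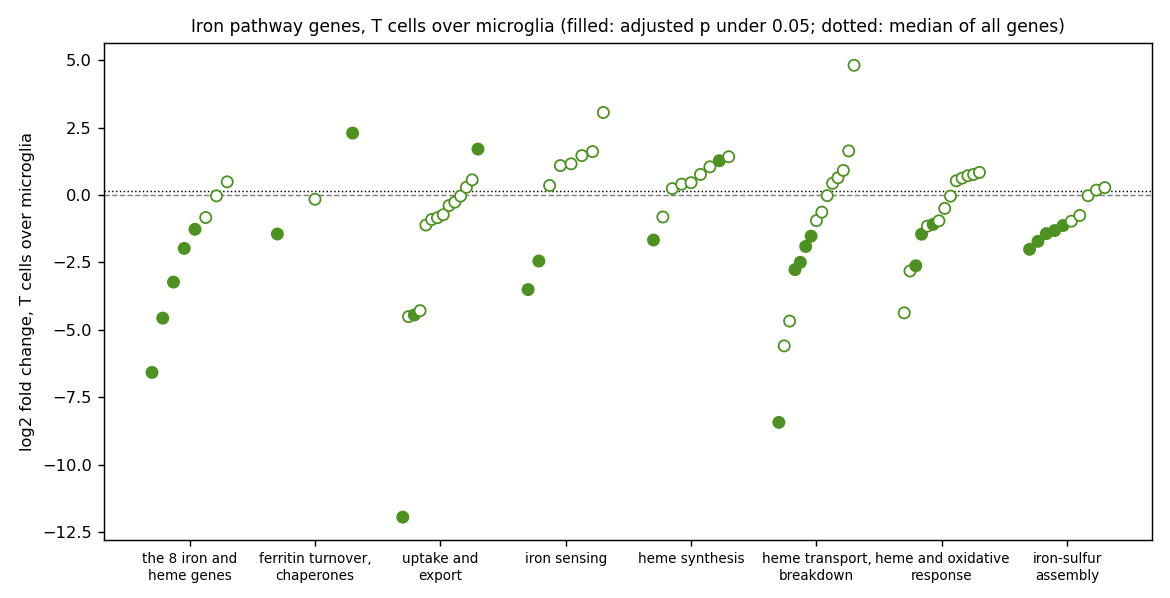
Fitted log2 fold changes of T cells over microglia (vertical axis) for the 8 genes and for every tested gene of the 7 other lists, each list ordered by value; filled points have an adjusted p under 0.05 and the dotted line is the median of all genes, at 0.17. The list of iron-sulfur assembly lies mostly below that line, with a median of -1.05, and Ltf, at -11.95, is the lowest point.

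In T cells, IL-5 against PBS gave no call among the 8 genes and none among all 13897 genes tested (0% called by edgeR; unadjusted p under 0.05 for 355 higher and 245 lower genes, 4.32%; DESeq2 called 228, 1.49%, and none of the 8). Trf came closest: both IL-5 libraries were above both PBS libraries, 1055 and 1574 against 816 and 954 CPM, with a log2 fold change of 0.62 (SE 0.22, edgeR unadjusted p = 0.0335, adjusted p = 1.00). Leaving out one library at a time gave 0.31 to 0.86. Choroid plexus markers lay on the same side, with 12 of 12 values above 0 and a median of 0.77, 6 of them with an unadjusted p under 0.05, and their sum was 114426 and 117441 CPM in T cells IL-5 and 85124 and 59778 CPM in T cells PBS. Oligodendrocyte markers, among them Mbp and Cnp, had a median of -0.02, with a sum of 2319 and 2349 CPM in T cells IL-5 and 1817 and 2900.1 CPM in T cells PBS. T cell markers lay on the other side, with 9 of 12 values below 0 and a median of -0.42, 4 of them with an unadjusted p under 0.05 and none called by edgeR. Their sum was 4335 and 5379 CPM in T cells IL-5 and 6596 and 7479 CPM in T cells PBS. The part of these cell types in the T cell values of Trf, and in those of the other 7 genes, was not tested.

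**Figure D5:**
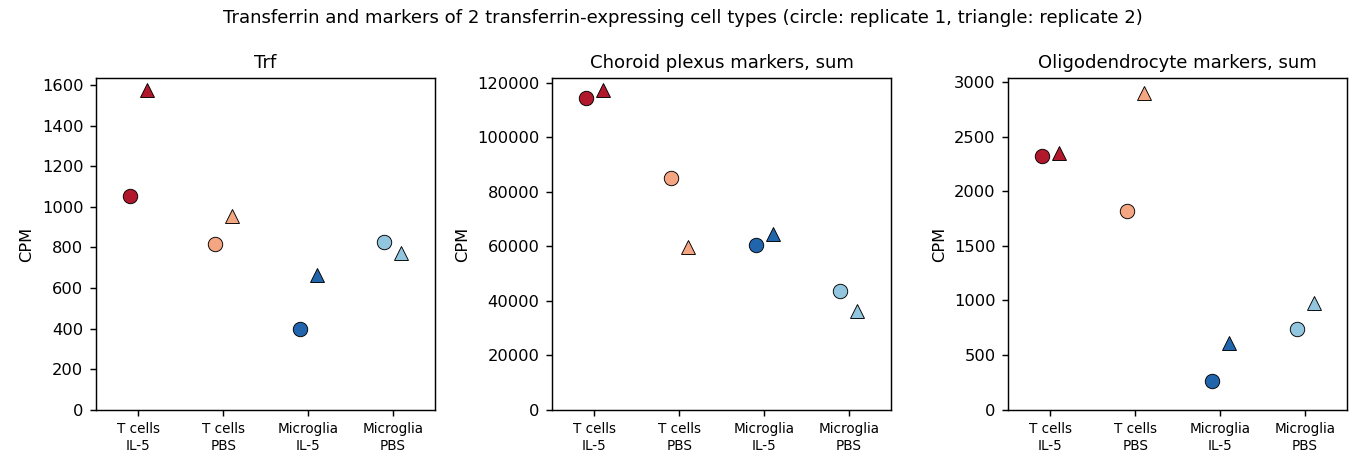
Trf (left) beside the summed CPM of 12 choroid plexus markers (middle) and 12 oligodendrocyte markers (right) in each library, with circles for replicate 1 and triangles for replicate 2. Trf and the choroid plexus sum are both higher in the IL-5 libraries of T cells, whereas in microglia the choroid plexus sum is higher and Trf and the oligodendrocyte sum are lower in the IL-5 libraries.

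The ferritin chains varied little between the T cell groups. Fth1 had a log2 fold change of 0.13 (SE 0.12, 95% interval -0.17 to 0.43) and Ftl1 of 0.22 (SE 0.15, 95% interval -0.15 to 0.59), the 2 narrowest intervals of the 8 genes. Slc40a1 was at -1.16 (SE 0.63, 95% interval -2.71 to 0.40), with both IL-5 libraries below both PBS libraries, and Slc11a2 at 0.81 (SE 0.57, 95% interval -0.58 to 2.21), with both above. For Tfrc (0.17, SE 1.16), Hmox1 (0.34, SE 1.59) and Slc11a1 (0.43, SE 3.59) the spread was too wide to show a difference of that size. The size of the Slc40a1 value moved with single libraries: it was at -1.94 without T cells IL-5 replicate 1 and at -0.66 without replicate 2. Slc11a2 was at 1.08 without replicate 1 and 0.47 without replicate 2. Without T cells IL-5 replicate 1, the library that stood apart, no member was called either, with Trf at 0.86, Fth1 at 0.14, Ftl1 at 0.17, Tfrc at -0.11, Hmox1 at 0.48 and Slc11a1 at -9.30. In CPM the IL-5 libraries were both above the PBS libraries for 4 of the 8 genes (Trf, Slc11a2, Fth1 and Ftl1), as for 16.6% of all genes tested, and both below for 1 (Slc40a1), as for 19% of them. The median of the 8 was 0.28 and that of all genes -0.01.

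In microglia, IL-5 against PBS likewise gave no call among the 8 genes and none among 13764 tested (0% called by edgeR; unadjusted p under 0.05 for 246 higher and 371 lower genes, 4.48%; DESeq2 called 117, 0.845%, and none of the 8). Of the 8, 7 had values below 0 and Ftl1 was above, with a median of -0.47 against -0.02 for all genes, of which 51.0% were below 0. Fth1 was at -0.58 (SE 0.53, 95% interval -1.86 to 0.70), Ftl1 at 0.41 (SE 0.47, 95% interval -0.71 to 1.52) and Slc11a1 at -0.82 (SE 0.61, 95% interval -2.29 to 0.66), all edgeR adjusted p = 0.984. These 3 values came mainly from Microglia IL-5 replicate 1. Without that library they were -0.10, 0.02 and -0.17. Without Microglia IL-5 replicate 2, which leaves replicate 1 alone against PBS and assumes that it varies like the PBS libraries, they were -1.30, 0.72 and -1.98, all 3 passed (edgeR adjusted p = 0.0122, 0.0372 and 0.0138), and 1255 genes were called.

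The remaining genes were at -0.47 for Trf (SE 0.39, 95% interval -1.41 to 0.47), -0.59 for Slc11a2 (SE 0.55), -0.47 for Tfrc (SE 1.15), -0.15 for Hmox1 (SE 0.47) and -0.09 for Slc40a1 (SE 0.40). Slc11a2 was at -1.10 without Microglia IL-5 replicate 1 and at -0.21 without replicate 2, and Trf was at -0.29 without replicate 1 and -0.66 without replicate 2. Without Microglia IL-5 replicate 1, Tfrc was at -2.35, Hmox1 at 0.02 and Slc40a1 at -0.39. In CPM both IL-5 libraries were below both PBS libraries for Trf, Slc11a2 and Slc40a1, 3 of the 8, as for 23.1% of all genes tested, and above them for 1, Ftl1, as for 15% of them. In the fit of all 8 libraries, the TMM factor of Microglia IL-5 replicate 1 was 0.638, against 0.808 to 0.819 in the other microglia libraries. The order in CPM therefore need not hold after scaling: without Microglia IL-5 replicate 2, the fitted value of Slc40a1 was 0.15. Trf was at 400.1 and 663 CPM in Microglia IL-5 and at 827 and 774 CPM in Microglia PBS. Of the oligodendrocyte markers 10 of 12 were below 0, with a median of -0.89 and a sum of 263 and 614 CPM in Microglia IL-5 and 736 and 978 CPM in Microglia PBS. Of the choroid plexus markers 11 of 12 were above 0, with a median of 0.55 and a sum of 60362 and 64335 CPM in Microglia IL-5 and 43444 and 36205 CPM in Microglia PBS. The part of these cells in the Trf values was not tested.

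None of the 7 pathway lists had a gene called by edgeR in either IL-5 comparison. Their medians ran from -0.29 (heme synthesis) to 0.23 (iron-sulfur assembly) in T cells and from -0.47 (heme transport and breakdown) to 0.29 (iron-sulfur assembly) in microglia.

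Whether the response to IL-5 differed between T cells and microglia was tested as an interaction over all 8 libraries. No gene of 15397 passed (0% called by edgeR; unadjusted p under 0.05 for 496 higher and 302 lower genes, 5.18%; DESeq2 called 248, 1.65%, and none of the 8). Trf had a difference of responses, T cells minus microglia, of 1.05 (log2, SE 0.46, 95% interval 0.01 to 2.08, edgeR unadjusted p = 0.0487, adjusted p = 0.904). Slc11a2 was at 1.36 (SE 0.82, 95% interval -0.48 to 3.21, edgeR adjusted p = 0.914). For both genes the IL-5 libraries lay above the PBS libraries in T cells and below them in microglia, as for 3.23% of all genes tested. Slc40a1 was at -1.09 (SE 0.72), Fth1 at 0.67 (SE 0.57) and Ftl1 at -0.22 (SE 0.47). Without Microglia IL-5 replicate 2 the difference of Fth1 was 1.36 (edgeR adjusted p = 0.0395). Leaving out Microglia IL-5 replicate 1 instead gave 0.22. Without that library Trf was at 0.90, Slc11a2 at 1.90, Slc40a1 at -0.78, Ftl1 at 0.19, Tfrc at 2.496, Hmox1 at 0.31 and Slc11a1 at 0.60. Without T cells IL-5 replicate 1, Trf was at 1.28, Slc11a2 at 1.62, Slc40a1 at -1.89, Fth1 at 0.67, Ftl1 at -0.28, Tfrc at 0.33, Hmox1 at 0.58 and Slc11a1 at -8.16.

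For each gene the profiles most like its own were taken over the 8 libraries, as the smallest root mean square difference of log2(CPM + 0.5) values centred on their means, among 9785 genes with a mean of at least 10 CPM. Fth1 was closest to Tbcc and Itm2b (0.103 and 0.108 log2 units), and Ftl1 to Gpx1 and Klk8 (0.177 and 0.223). Trf was closest to Hat1 and Hist1h2bc (0.182 and 0.186), Slc11a2 to Whrn and Cyb561 (0.218 and 0.274), Slc40a1 to Nrm and Entpd1 (0.244 and 0.296) and Hmox1 to Rhob and H2-DMa (0.255 and 0.354). Tfrc, nearest to Zfp212 and Ppm1k at 0.545 and 0.607, and Slc11a1, nearest to Gal3st4 and Cx3cr1 at 0.830 and 0.949, had no profile as near as those. All these values come from the same 8 libraries and are a description.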

How the data were processed

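RNA-seq libraries of sorted brain T cells and microglia from aged mice, 2 per group, were analysed from the table of raw read counts per gene that the authors deposited, whole numbers with no scaling. Per the submitters' processing notes, the tools were STAR 2.5.3a, bcl2fastq 2.20.0.422, FastQC 1.0.0, DESeq2 1.1 and Cufflinks 2.0, on mm10 and GRCm38; the counting tool and its strand setting are not given in the sources used here. Of 24953 entries, 2 summaries and 27 genes with unreadable cells, 26 of them named as dates, were left out. The summaries, reads outside genes and ambiguous reads, made up 15.2% to 25.5% and 1.39% to 1.77% of each column.

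CPM are counts per 1000000 gene counts. A count of 0 allows up to 3 counts, 0.0986 to 0.127 CPM, which covers counting error only. Tests across genes used the quasi-likelihood method of edgeR 4.0.16 in R 4.3.3 (TMM, filterByExpr with a minimum count of 10, robust, two-sided) with Benjamini-Hochberg adjustment over all genes tested and a threshold of 0.05. IL-5 was set against PBS within each cell type, and all 8 libraries gave the other contrasts. A standard error is the log2 fold change over the root of F, and 95% intervals use the t quantile of the fit. The code was tested on simulated counts. Alternatives were DESeq2 1.42.0, RLE and library-size scaling, testing unfiltered, requiring 5 CPM in 2 libraries or more, a replicate block, 1 fit of all libraries, contrasts within a treatment, and leaving out each library.

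The hairpin search used GENCODE M21, in which 24390 symbols (97.9%) matched, and figures used Python 3.11.15 with matplotlib 3.10.9. The 8 genes, 7 pathway lists (81 of 84 genes in the table) and 10 cell type lists were written from general knowledge with earlier results of these data known. Named beyond the 8 genes were the 2 most abundant genes and up to 4 called genes of each pathway list, up to 3 of the most abundant markers of each cell type used (some are not reported here), and the 2 nearest profiles; other genes were named after their values were seen, because they show a scaling effect or complete a list.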

Additional observations from a re-analysis of the deposited data

Results flagged for a closer look

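In all, 18 groups of 4 libraries were examined, for each gene and for the ferritin ratio in each cell type. The T cell groups among them do not hold Microglia IL-5 replicate 1. That library was far from the other 3 microglia libraries in 4 groups, by the gap to its nearest neighbour divided by the whole range. The limit was Dixon's 95% value for 4 samples, and no other library passed it. It was the lowest library for Slc11a1 (gap share 0.859) and Fth1 (0.883), and the highest for Ftl1 (0.856) and for the log2 ratio of Ftl1 to Fth1 (0.887). Chance alone passes this limit in about 1 group in 20, and the 4 values share one library and in part the same counts.

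The values for IL-5 against PBS had opposite signs in T cells and microglia for Trf, with a log2 difference of 1.05, and for Slc11a2, with 1.36. Signs were also opposite for Tfrc, Slc11a1, Fth1 and Hmox1, whose IL-5 and PBS libraries were not apart in both cell types. For Trf and Slc11a2 each IL-5 library lay above both PBS libraries in T cells and below both in microglia, as in 3.23% of all genes tested. Neither gene passed the edgeR test in either cell type. The microglia value of Slc11a2 was -1.10 without Microglia IL-5 replicate 1 and -0.21 without replicate 2. The test of the difference itself did not pass (edgeR adjusted p = 0.904 for Trf and 0.914 for Slc11a2).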

How the results depend on the processing

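Groups of 2 limit every IL-5 value: leaving out one library moved the genes called from 0 to between 0 and 1255 in microglia, 0 and 1 in T cells and 0 and 232 for the difference of responses, and called members to between 0 and 3, 0 and 0, and 0 and 1. The highest counts, 1255 and 232, came without Microglia IL-5 replicate 2. DESeq2 called 117, 228 and 248 genes. Without a filter 2 genes were called in T cells and 31 for the difference, and 1 fit of all libraries called 2 in T cells. For T cells against microglia, 2993 genes became 5081 in DESeq2, 1105 between PBS and 1266 between IL-5 libraries, and 1986 to 3634 with one library left out; the 5 members called became 3 between PBS, 3 between IL-5 and 3 to 4 with one left out. The ferritin ratio ran from -2.22 to -1.51 with one left out (exact p 0.0571 in each, the smallest possible), and was -2.0 when labels were permuted within treatment (exact p 0.0556, also the smallest possible). The sign of Trf in T cells against microglia turned to 0.73 with library-size scaling and to 0.49 between IL-5 libraries, and between PBS libraries it was -0.55.

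With one library left out the sign turned for Hmox1 (-0.59 to 0.45), Tfrc (-2.35 to 0.66) and Slc40a1 (-0.39 to 0.15) in microglia, for Tfrc (-0.74 to 3.11), Slc11a1 (-9.30 to 9.78) and Hmox1 (-0.17 to 1.14) in T cells, for Ftl1 (-0.56 to 0.19), Tfrc (-0.52 to 3.54), Hmox1 (-0.12 to 1.28) and Slc11a1 (-8.16 to 10.22) in the difference, and for Trf (-0.18 to 0.090) and Tfrc (-0.96 to 1.39) between cell types. Same-numbered replicates were not shown to be pairs (correlations of 0.0100 to 0.0189); with a replicate block the IL-5 contrasts and their difference called 0 genes and T cells against microglia 2661, where Slc11a1 was lost (-6.48, edgeR adjusted p = 0.0630). With the block set within treatment 2087 were called and Slc11a1 was again lost (-8.19, edgeR adjusted p = 0.104). Of the values of single members under the alternatives, 379 kept their direction and side of the threshold, 19 were lost, 4 gained and 22 turned. The cause was not tested.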

Other observations

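Among the 7 pathway lists, 2 uptake genes passed in T cells for IL-5 against PBS by DESeq2 and not by edgeR. DESeq2 called 228 genes in that comparison, 1.49% of those it tested, and edgeR none. Because edgeR called neither of the 2 uptake genes, neither is given as changed. The reason for the different calls of the methods was not tested. Slc22a17 measured 527 and 789 CPM in T cells IL-5 and 329 and 293 CPM in T cells PBS, a log2 difference of 1.13 (SE 0.24; edgeR adjusted p = 1.00, DESeq2 adjusted p = 0.00210). Steap3, a reductase of the transferrin endosome named here after its values were seen, measured 17.4 and 7.64 CPM in T cells IL-5 and was listed at 0 in both T cells PBS libraries (DESeq2 adjusted p = 0.000370, edgeR unadjusted p = 0.0146). In microglia it measured 0 and 4.41 CPM after IL-5 and 5.69 and 4.23 CPM after PBS.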
